A study of Mus musculus with 8 samples.

Results

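The Wnt pathway genes of the mouse LV were taken from the deposited counts by gene name: the Wnt ligands, R-spondins, Frizzled, Lrp5/6, Ror and Lgr receptors, the ligases Znrf3 and Rnf43, the antagonists of the Sfrp, Dkk and Wif1 families, the Dishevelled, Axin, Apc and β-catenin genes and the TCF/LEF factors. The names matched 63 of 46040 rows, with 62 different symbols, because *Fzd6* has 2 rows. The second row (ENSMUSG00000107137) had no count in any library and its identifier is absent from GENCODE M21. Of the 63 rows, 35 passed the study's filter on low counts, which asks for a CPM (count relative to the library total) of 1 or more in 2 or more libraries, and 28 did not. Of these 28, 10 had no count in any of the 8 libraries and 18 had at least 1 count.

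RNA of the LV was sequenced from 8 male C57BL/6 mice aged 5 to 7 months, with 4 libraries per genotype, after 14 days of subcutaneous angII infusion (0.1 mg/kg/h), which raises the pressure load of the heart. In the VEGFR-1 TK-/- animals, every cell bears a germline *Flt1* allele whose product, VEGFR-1, has no intracellular tyrosine kinase domain, and the other mice were their littermates. Every mouse received angII, and only mice alive at the end of the infusion were sampled. The labels contradict each other: for every library, tag and library name state one genotype and the title states the opposite one. The libraries were grouped by tag and library name and are called wildtype-tagged and VEGFR1_TK-tagged (tag VEGFR1_TK -/-). Each log2 fold change sets the VEGFR1_TK-tagged against the wildtype-tagged libraries, a direction that would be the opposite if the titles held. Nothing in the labels says that the libraries of one tag came from separate litters or days, so the p-values measure the spread between these mice.

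Between 11449137 and 16239670 counts per library fell on genes, so that a CPM of 1 stands for 11 to 16 counts. Over the whole gene, *Flt1* was at a mean of 69.2 normalized CPM in the wildtype-tagged and 157 in the VEGFR1_TK-tagged libraries, a count that includes transcripts of both kinds, with or without the kinase part. The summed normalized CPM of 6 cardiomyocyte genes (*Myh6*, *Actn2*, *Tnnt2*, *Tnni3*, *Ryr2* and *Ttn*) was 40350 to 60050 in the wildtype-tagged and 48830 to 65410 in the VEGFR1_TK-tagged libraries. Of 6 atrial genes, *Sln* and *Bmp10* were at 0 to 0.266 normalized CPM and 4 passed the filter, and the list summed to 872 to 1377 and 575 to 1497, mostly from *Nppa*, which loaded ventricles also express. Of 6 adipocyte genes, none passed and 3 had no count, with sums of 0 to 1.54 in the wildtype-tagged and 0 to 0.0796 in the VEGFR1_TK-tagged libraries. The library names carry the word cardiomyo, although the stated source is LV tissue. The tissue also held fibroblast, endothelial, mural, macrophage and mesothelial RNA, and in such bulk samples fewer cells of a type and less RNA per cell cannot be told apart.

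Wnt proteins are secreted, lipid-modified ligands that bind a Frizzled receptor together with Lrp5 or Lrp6. This engages Dishevelled, disables the complex of Axin, Apc and kinases that marks β-catenin for degradation, and lets β-catenin act with TCF/LEF factors on target genes. R-spondins strengthen the signal by way of Lgr receptors, which remove the Frizzled-degrading ligases Znrf3 and Rnf43. Sfrp and Wif1 proteins bind the ligands, Dkk1, Dkk2 and Dkk4 bind Lrp5/6, and Ror receptors carry β-catenin-independent signals, mainly of Wnt5a. In the heart the pathway acts during development and is engaged again in injury and remodelling.

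None of the 35 members was called by edgeR's quasi-likelihood test (FDR below 0.1 with a log2 fold change beyond 0.585 in either direction). Of all 13542 genes tested, 0.00738% were called. The likelihood ratio test of the study and DESeq2 also called 0 members, where they called 0.391% and 0.236% of all genes, DESeq2 giving an adjusted p for 27 of the 35 and none for 8 (*Axin2*, *Fzd5*, *Fzd9*, *Ror2*, *Rspo1*, *Sfrp5*, *Tcf7* and *Wif1*). The lowest FDR of a member was 0.508. An unadjusted p under 0.05 was found for 4 of the 35 members (11.4%, against 8.96% of all genes), *Wif1* and *Znrf3* being higher (3.32% of all genes) and *Ror1* and *Lrp5* lower (5.64% of all genes) in the VEGFR1_TK-tagged libraries. The groups did not overlap in 2 of the 35 members (5.71%, against 4.98% of all genes), *Ror1*, which was lower (2.53% of all genes), and *Znrf3*, which was higher (2.46%). Both shares lay near those of all genes. *Wif1* is counted among the 4 although it passed the filter only through the VEGFR1_TK-tagged libraries, where it was higher. The median log2 fold change of the 35 members was −0.03, against −0.0012 over all genes, and the median absolute value 0.15 against 0.13. Leaving out 1 library moved the count of 4 to 1 (wildtype-tagged replicate 2, VEGFR1_TK-tagged replicate 2 or 3) or 2 (wildtype-tagged replicate 1 or 3, VEGFR1_TK-tagged replicate 1). It moved the count of 2 to 3 (wildtype-tagged replicate 2 or 3, VEGFR1_TK-tagged replicate 2 or 4) or 4 (wildtype-tagged replicate 4). The shares over all genes were not counted in these fits, and groups of fewer libraries separate more easily.

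**Figure D1:**
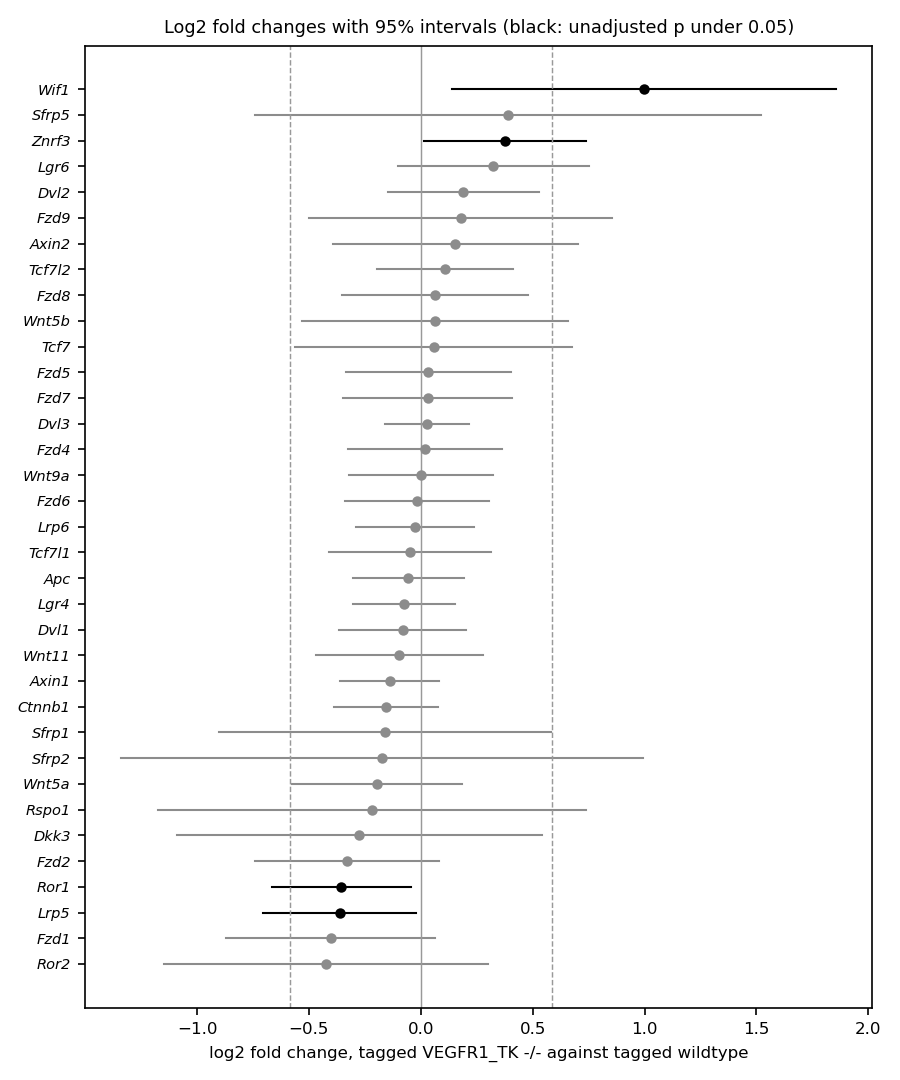
Log2 fold change (horizontal axis, VEGFR1_TK-tagged against wildtype-tagged libraries, n = 4 each) of the 35 members that passed the filter, with 95% intervals as lines; dashed lines mark ±0.585 and black marks an unadjusted p under 0.05. *Wif1* alone lies beyond a dashed line, at 1.00, and the 31 grey intervals include 0. *Wif1* passed the filter only through the VEGFR1_TK-tagged libraries.

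The 19 Wnt ligands were low in the LV. Only *Wnt9a*, *Wnt5b*, *Wnt11* and *Wnt5a* passed the filter, and they are also the only ligands with a mean of at least 1 FPKM, here normalized CPM per kilobase of exon. Summed over all 19 ligands, the level was 6.81 ± 0.253 FPKM in the wildtype-tagged and 6.69 ± 0.453 FPKM in the VEGFR1_TK-tagged libraries (SD, n = 4 per group). *Wnt9a* gave the largest part of it (32.4%) at 2.19 ± 0.227 FPKM (SD, n = 8), followed by *Wnt5b* at 1.58 ± 0.442, *Wnt11*, a ligand of heart development, at 1.28 ± 0.174 and *Wnt5a*, the main ligand of Ror receptors, at 1.06 ± 0.177. The ranges of neighbours in this order overlapped in each pair, although *Wnt11* was above *Wnt5a* in 8 of 8 libraries.

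Normalized CPM values of *Wnt9a* were 6.43, 7.902, 7.93 and 6.87 in the 4 wildtype-tagged libraries and 7.63, 7.36, 6.08 and 8.12 in the 4 VEGFR1_TK-tagged libraries. *Wnt5b* was at 4.19, 3.77, 3.56 and 4.95 normalized CPM in the wildtype-tagged and at 6.09, 2.13, 3.95 and 4.94 in the VEGFR1_TK-tagged libraries. The wildtype-tagged libraries had 5.61, 4.71, 6.52 and 5.03 normalized CPM of *Wnt11* and the VEGFR1_TK-tagged libraries 4.38, 5.497, 5.92 and 4.697. The groups overlapped in all 3 ligands, and *Wnt5b* spread most, its lowest value being that of VEGFR1_TK-tagged replicate 2. *Wnt5a* reached 8.299, 8.55, 10.01 and 8.55 normalized CPM in wildtype-tagged replicates 1 to 4 and 5.28, 9.399, 8.13 and 8.2 in VEGFR1_TK-tagged replicates 1 to 4. *Wnt5a* was lowest in VEGFR1_TK-tagged replicate 1 and its log2 fold change of −0.19 (95% interval −0.57 to 0.19) includes 0. The log2 fold changes of the 4 ligands ranged from −0.19 to 0.06.

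The other 15 ligands stayed below the filter. *Wnt2* had 4 to 10 counts per library, *Wnt9b* 2 to 16, *Wnt4* 0 to 8 and *Wnt6* 1 to 7. *Wnt1*, *Wnt2b*, *Wnt7a*, *Wnt7b* and *Wnt10b* had at most 4 counts in any library. *Wnt3*, *Wnt3a*, *Wnt8a*, *Wnt8b*, *Wnt10a* and *Wnt16* had no count, which allows up to 3 counts or 0.185 to 0.262 CPM in a library. These limits cover counting error only.

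**Figure D2:**
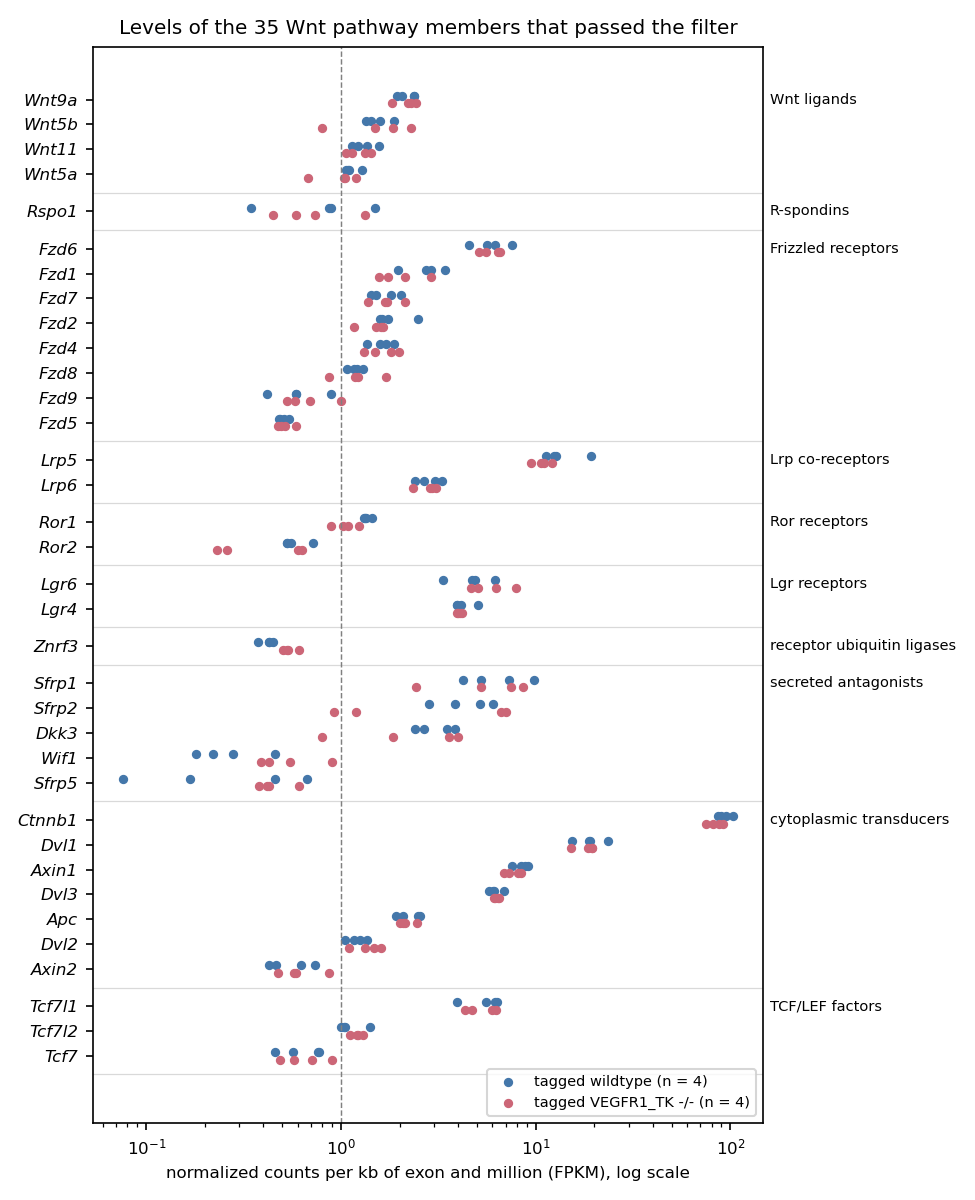
Level of the 35 members that passed the filter in each library (points, n = 4 per genotype tag) as FPKM (normalized CPM per kilobase of exon) on a log axis, grouped by role; the dashed line marks 1. *Ctnnb1* is the highest member at 88.8 FPKM, and all 4 ligands lie between 0.674 and 2.44 FPKM.

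Sequences upstream of the RefSeq starts on GRCm38.p6 were searched for the 42 of 62 symbols with an entry, and are printed only where the window bears no exon in GENCODE M21. The letters CTTTGAA or CTTTGAT or CTTTGTA or CTTTGTT, the core that TCF/LEF factors bind, were searched on both strands in the 250 bases before each start. They occurred in 14.8% of 32851 windows of all genes and in 11.5% of 52 windows of members. Shown are the 4 members that passed the filter and hold such letters (*Wnt11*, *Wnt5b*, *Fzd7* and *Tcf7l2*), *Axin2* as the most used target gene of β-catenin, and *Ror1*, the lower member without overlap of the groups, both without these letters in this window. The windows of *Wnt5b* and *Tcf7l2* belong to starts inside the gene. *Wnt11*, *Wnt5b* and *Tcf7l2* also have windows at other starts, which do not hold these letters and are not shown. *Znrf3* and *Lrp5* are not shown. Each sequence runs 5′ to 3′ on the strand of the gene, and capitals mark a match on either strand. A match is not a site of binding.
*Wnt11* promoter, chr7:98834862-98835111 (plus strand): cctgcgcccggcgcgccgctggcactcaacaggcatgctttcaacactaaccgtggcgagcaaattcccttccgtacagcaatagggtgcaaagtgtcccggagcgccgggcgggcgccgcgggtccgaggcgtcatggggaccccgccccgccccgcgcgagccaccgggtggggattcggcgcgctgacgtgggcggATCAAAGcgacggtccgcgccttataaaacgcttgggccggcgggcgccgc
*Wnt5b* promoter, chr6:119449387-119449636 (minus strand): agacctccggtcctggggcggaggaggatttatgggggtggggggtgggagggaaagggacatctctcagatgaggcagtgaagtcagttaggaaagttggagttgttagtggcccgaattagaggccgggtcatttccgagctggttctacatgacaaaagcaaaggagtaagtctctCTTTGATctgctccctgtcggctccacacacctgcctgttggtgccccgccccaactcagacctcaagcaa
*Fzd7* promoter, chr1:59481897-59482146 (plus strand): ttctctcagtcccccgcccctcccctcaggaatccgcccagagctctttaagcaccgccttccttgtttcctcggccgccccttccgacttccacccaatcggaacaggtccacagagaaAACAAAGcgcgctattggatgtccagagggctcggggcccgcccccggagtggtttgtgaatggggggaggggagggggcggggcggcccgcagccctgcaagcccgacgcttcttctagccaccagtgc
*Tcf7l2* promoter, chr19:55895071-55895320 (plus strand): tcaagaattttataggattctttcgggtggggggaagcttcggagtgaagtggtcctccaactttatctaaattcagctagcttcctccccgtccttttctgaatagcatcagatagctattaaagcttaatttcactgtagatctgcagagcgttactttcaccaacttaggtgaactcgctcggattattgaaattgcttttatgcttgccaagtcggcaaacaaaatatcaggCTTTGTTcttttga
*Axin2* promoter, chr11:108920099-108920348 (plus strand): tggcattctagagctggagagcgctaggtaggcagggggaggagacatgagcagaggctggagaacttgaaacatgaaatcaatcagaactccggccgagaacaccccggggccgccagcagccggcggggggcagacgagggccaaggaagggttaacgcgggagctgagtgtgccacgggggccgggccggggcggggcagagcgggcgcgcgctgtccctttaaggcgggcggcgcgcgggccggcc
*Ror1* promoter, chr4:100095541-100095790 (plus strand): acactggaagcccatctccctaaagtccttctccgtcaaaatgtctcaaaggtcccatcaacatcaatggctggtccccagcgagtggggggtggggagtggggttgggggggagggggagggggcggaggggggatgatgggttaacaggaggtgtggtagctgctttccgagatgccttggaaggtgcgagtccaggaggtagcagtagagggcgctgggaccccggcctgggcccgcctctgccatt

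The matches lie 51 bases before the start of *Wnt11*, 71 before that of *Wnt5b*, 130 before that of *Fzd7* and 14 before that of *Tcf7l2*, counted to the first base of the match. The log2 fold changes of these 4 members were −0.10, 0.06, 0.03 and 0.11, each with overlapping groups.

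Among the R-spondins, *Rspo1* alone passed the filter, with 10 to 40 counts per library. In the wildtype-tagged libraries *Rspo1* was at 1.72, 2.9, 0.672 and 1.68 normalized CPM, and in the VEGFR1_TK-tagged libraries at 1.14, 2.57, 0.868 and 1.43. Replicate 2 of each group was the highest and the groups overlapped (log2 fold change −0.22, 95% interval −1.18 to 0.74). *Rspo3* had 0 to 2 counts, and *Rspo2* and *Rspo4* had none.

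Wildtype-tagged replicates 1 to 4 held 10.4, 21.1, 2.69 and 4.55 normalized CPM of *Msln*, and VEGFR1_TK-tagged replicates 1 to 4 held 3.73, 18.2, 5.05 and 9.71. For *Upk3b* these values were 12.9, 21.97, 2.96 and 5.03 (wildtype tag) and 4.22, 22.6, 5.84 and 12.3 (VEGFR1_TK tag) in normalized CPM. Both mark the mesothelium that covers the heart. Replicate 2 of each group was also among the 2 highest libraries for *Msln* and *Upk3b*, and wildtype-tagged replicate 3 was the lowest for *Rspo1*, *Msln* and *Upk3b*. The summed level of 6 mesothelial genes ranged from 18.5 to 67.1 normalized CPM in the wildtype-tagged and from 18.8 to 65.6 in the VEGFR1_TK-tagged libraries, 0 of 6 having an unadjusted p under 0.05. The part of the surface layer in the level of *Rspo1* was not tested.

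Of the R-spondin receptors, *Lgr6* and *Lgr4* were well covered and *Lgr5* was not, with 0 to 6 counts per library. Per library, *Lgr6* measured 32.4, 22.9, 42.2 and 33.6 normalized CPM with the wildtype tag and 42.8, 31.9, 54.6 and 34.8 with the VEGFR1_TK tag. *Lgr4* was at 24.4, 23.1, 23.2 and 29.8 normalized CPM in the wildtype-tagged and at 24.02, 24.7, 23.5 and 23.2 in the VEGFR1_TK-tagged libraries. *Lgr6* (5.39 ± 1.39 FPKM, SD, n = 8) was above *Lgr4* (4.17 ± 0.377 FPKM) in 6 of 8 libraries, so that their order is not settled by the spread. The highest library of each group for *Lgr6* was replicate 3. The groups overlapped, with a log2 fold change of 0.32 (SE 0.20, 95% interval −0.10 to 0.75).

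Replicate 3 of each group also had the highest summed level of the 6 cardiomyocyte genes, 60050 and 65410 normalized CPM, and wildtype-tagged replicate 2, the lowest for *Lgr6*, had the lowest sum, 40350. The other libraries did not keep this order. VEGFR1_TK-tagged replicate 2, the lowest of its tag for *Lgr6*, had a sum of 56370, and replicate 4 had the lowest sum of that tag, 48830. Of these 6 genes, 1 had an unadjusted p under 0.05 and was higher in the VEGFR1_TK-tagged libraries. The part of the cell makeup in the level of *Lgr6* was not tested. Without wildtype-tagged replicate 3 the log2 fold change was 0.47 (unadjusted p = 0.0335 by edgeR's quasi-likelihood test), without VEGFR1_TK-tagged replicate 3 it was 0.15 and without wildtype-tagged replicate 2 it was 0.19.

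*Znrf3* (ENSMUSG00000041961, chromosome 11, 5276324 to 5444847, minus strand of GRCm38), a ligase that removes Frizzled and Lrp6 from the cell surface and is itself a target of β-catenin, was higher in each VEGFR1_TK-tagged library than in any wildtype-tagged library. Normalized CPM values of *Znrf3* were 3.36, 2.97, 3.36 and 3.51 in the 4 wildtype-tagged libraries and 3.98, 4.79, 4.18 and 4.22 in the 4 VEGFR1_TK-tagged libraries. The means were 3.302 ± 0.232 and 4.29 ± 0.348 (SD, n = 4 each), which is a log2 fold change of 0.38 (SE 0.17, 95% interval 0.02 to 0.74). The unadjusted p was 0.0422 and the FDR 0.541 by edgeR's quasi-likelihood test, so the difference did not pass the correction. The exact permutation test (2-sided) gave p = 0.0286, the smallest that 4 libraries against 4 allow. Groups without overlap give this value by themselves, so it adds nothing to their separation. The unadjusted p of *Znrf3* was under 0.05 in only 4 of 15 alternative fits. It was 0.0765 with DESeq2 and 0.0816 by edgeR's quasi-likelihood test with the replicate number as a block. The reads were few, 41 to 50 and 49 to 54 counts per library, and before normalization the counts of the groups overlapped. Its paralog *Rnf43* had 0 to 5 counts.

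Frizzled genes encode the receptors that bind Wnt ligands, and 8 of the 10 passed the filter. *Fzd6* was the most abundant at 5.96 ± 0.9302 FPKM (SD, n = 8), above *Fzd1* (2.42 ± 0.662) in 8 of 8 libraries without overlap of their ranges. It was followed by *Fzd7* (1.71 ± 0.274), *Fzd2* (1.67 ± 0.367), *Fzd4* (1.64 ± 0.244), which also serves the ligand Norrin in vessels, *Fzd8* (1.22 ± 0.236), *Fzd9* (0.6599 ± 0.192) and *Fzd5* (0.511 ± 0.0379). From *Fzd1* downwards the ranges of each neighbouring pair overlapped. *Fzd3* had 4 to 17 counts per library and *Fzd10* 0 to 1.

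*Fzd6* reached 27.2, 36.4, 22.03 and 29.9 normalized CPM in wildtype-tagged replicates 1 to 4 and 30.9, 26.9, 24.6 and 31.6 in VEGFR1_TK-tagged replicates 1 to 4. The wildtype-tagged libraries had 12.1, 14.4, 11.5 and 8.23 normalized CPM of *Fzd1* and the VEGFR1_TK-tagged libraries 8.93, 7.36, 6.55 and 12.2. For *Fzd7* these values were 6.43, 9.21, 6.85 and 8.15 (wildtype tag) and 7.63, 9.66, 6.23 and 7.802 (VEGFR1_TK tag) in normalized CPM. The 3 receptors overlapped between the groups. *Fzd1* had the lowest log2 fold change of the receptors that bind Wnt as Frizzleds, −0.40 (SE 0.21, unadjusted p = 0.0855 by edgeR's quasi-likelihood test, 95% interval −0.87 to 0.07). Its unadjusted p was 0.0128 without VEGFR1_TK-tagged replicate 4, 0.0267 without wildtype-tagged replicate 4 and 0.0444 without the filter on low counts, and the FDR stayed at 0.405 or more. Of the 8 Frizzled genes, 5 had a positive and 3 a negative log2 fold change, from −0.40 to 0.18.

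The co-receptor *Lrp5* (ENSMUSG00000024913, chromosome 19, 3584828 to 3686564, minus strand of GRCm38) was the most abundant receptor among the members, with 1142 to 2796 counts per library and 12.4 ± 2.97 FPKM (SD, n = 8), on average 4.49 times the level of *Lrp6* (2.83 ± 0.331 FPKM). In the wildtype-tagged libraries *Lrp5* was at 124, 110, 188 and 122 normalized CPM, and in the VEGFR1_TK-tagged libraries at 92.7, 104, 108 and 119. The VEGFR1_TK-tagged libraries were lower, with a mean of 106 ± 10.8 against 136 ± 35.2 (SD, n = 4 per group), but VEGFR1_TK-tagged replicate 4 was above wildtype-tagged replicate 2. The log2 fold change was −0.36 (SE 0.16, 95% interval −0.70 to −0.02), with an unadjusted p = 0.0401 and an FDR of 0.538 by edgeR's quasi-likelihood test and p = 0.0571 in the 2-sided exact permutation test. Without wildtype-tagged replicate 3 it was −0.17 (unadjusted p = 0.11, edgeR's quasi-likelihood test). Wildtype-tagged replicates 1 to 4 held 36.6, 41.7, 32.9 and 45.05 normalized CPM of *Lrp6*, and VEGFR1_TK-tagged replicates 1 to 4 held 39.4, 41.9, 32.1 and 40.04. *Lrp6* overlapped between the groups, with a log2 fold change of −0.03 (95% interval −0.29 to 0.24).

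**Figure D3:**
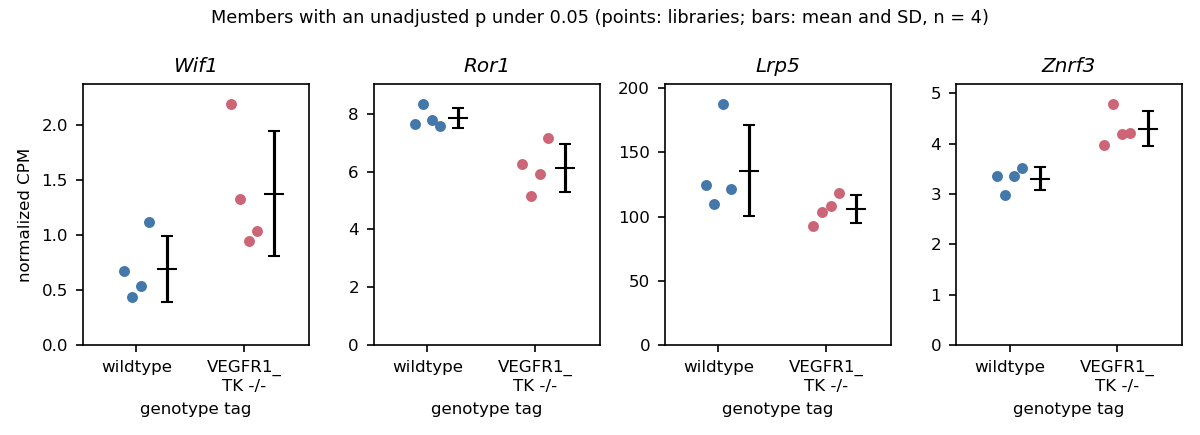
Normalized CPM (vertical axes from 0) of the 4 members with an unadjusted p under 0.05, by genotype tag, with points for libraries and bars for the mean and SD (n = 4). The groups are separate in *Ror1* and *Znrf3* and overlap in *Wif1* and in *Lrp5*, where wildtype-tagged replicate 3 stands at 188.

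*Ror1* (ENSMUSG00000035305, chromosome 4, 100095791 to 100444765, plus strand of GRCm38), a receptor tyrosine kinase-like protein that binds Wnt5a and whose upstream sequence is shown above, was lower in each VEGFR1_TK-tagged library than in any wildtype-tagged library. Per library, *Ror1* measured 7.63, 8.34, 7.79 and 7.59 normalized CPM with the wildtype tag and 6.25, 5.14, 5.92 and 7.17 with the VEGFR1_TK tag. The means were 7.84 ± 0.346 and 6.12 ± 0.838 (SD, n = 4 each), which is a log2 fold change of −0.35 (SE 0.14, 95% interval −0.67 to −0.04). Its unadjusted p was 0.0292 and its FDR 0.521 by edgeR's quasi-likelihood test. The 2-sided exact permutation test gave p = 0.0286, the smallest possible here, which groups without overlap give by themselves. The gap between the groups was narrow, with 7.59 as the lowest wildtype-tagged and 7.17 as the highest VEGFR1_TK-tagged library.

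Normalized CPM values of *Ror2* were 2.24, 2.25, 2.35 and 3.04 in the 4 wildtype-tagged libraries and 2.68, 0.9754, 1.105 and 2.55 in the 4 VEGFR1_TK-tagged libraries. VEGFR1_TK-tagged replicates 2 and 3 were the lowest 2 libraries for *Ror2*, and the other two lay among the wildtype-tagged ones. The log2 fold change of *Ror2* was −0.42 (95% interval −1.15 to 0.30), on 11 to 38 counts per library. It was −0.66 without VEGFR1_TK-tagged replicate 1, −0.23 without replicate 2 of that tag and −0.24 without its replicate 3. *Ror1* was above *Ror2* in 8 of 8 libraries, at 1.21 ± 0.1897 and 0.506 ± 0.173 FPKM (SD, n = 8).

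Some markers of other cell types were lower in the VEGFR1_TK-tagged libraries at an unadjusted p under 0.05, the share of all genes that were being 5.64%. Of 6 pericyte and smooth muscle genes, 4 had an unadjusted p under 0.05 (*Pdgfrb*, *Rgs5*, *Cspg4* and *Kcnj8*), all lower in the VEGFR1_TK-tagged libraries. The summed level of all 6 was 1136 to 1669 against 762 to 1236 normalized CPM. In 3 of the 6 the groups did not overlap (50%, against 2.53% of all genes that were lower without overlap). Of 6 endothelial genes, 3 were lower at this threshold (*Pecam1*, *Cdh5* and *Tie1*), with sums of 1136 to 1454 and 1033 to 1180, and of 6 macrophage genes, 2 were (*Csf1r* and *Cd163*), with sums of 258 to 307 and 182 to 261. None of these 18 genes had an FDR under 0.1. Of 6 skeletal muscle genes, 4 passed the filter and *Acta1*, which heart muscle also expresses, was lower at this threshold and without overlap (3121 to 6950 against 1454 to 1851 normalized CPM, FDR 0.152 by edgeR's quasi-likelihood test). In the fibroblast, mesothelial, atrial, T lymphocyte and Schwann cell lists 0 genes passed the unadjusted threshold. All 6 fibroblast genes still had a negative log2 fold change, with a median of −0.27, the same as in the endothelial list (−0.27). The 3 T lymphocyte genes that passed the filter had a positive one, with a median of 0.43. The part of these cells in the values of *Ror1* and *Lrp5* was not tested. In the sum of pericyte and smooth muscle genes, wildtype-tagged replicate 3, the highest library for *Lrp5*, was also the highest at 1669. Wildtype-tagged replicate 2 was close to it at 1622, but was the lowest wildtype-tagged library for *Lrp5*. The lowest sum was that of VEGFR1_TK-tagged replicate 2 (762), whereas *Lrp5* was lowest in replicate 1 of that tag.

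Of the 9 secreted antagonists, *Sfrp1*, *Sfrp2*, *Dkk3*, *Wif1* and *Sfrp5* passed the filter. *Sfrp1* and *Sfrp2*, which bind Wnt ligands through a Frizzled-like domain, were the most abundant at 6.28 ± 2.43 and 4.22 ± 2.399 FPKM (SD, n = 8), followed by *Dkk3*, a divergent Dkk protein, at 2.84 ± 1.12 FPKM. Their values differed more among mice of 1 tag than between the tags. *Sfrp1* reached 31.8, 42.7, 18.4 and 23 normalized CPM in wildtype-tagged replicates 1 to 4 and 37.6, 22.8, 10.6 and 32.6 in VEGFR1_TK-tagged replicates 1 to 4. *Sfrp2* was at 13.01, 11.2, 6.11 and 8.31 normalized CPM in the wildtype-tagged and at 15.2, 2.57, 1.97 and 14.3 in the VEGFR1_TK-tagged libraries. The wildtype-tagged libraries had 13.01, 11.7, 8.93 and 8.07 normalized CPM of *Dkk3* and the VEGFR1_TK-tagged libraries 13.5, 6.21, 2.68 and 12.1. VEGFR1_TK-tagged replicate 3 was the lowest of all libraries in each of the 3 genes, and VEGFR1_TK-tagged replicate 1 the highest in *Sfrp2* and *Dkk3* and the second in *Sfrp1*. The highest library was 7.69 times the lowest for *Sfrp2*, 5.02 times for *Dkk3* and 4.04 times for *Sfrp1*. The log2 fold changes were −0.16 (95% interval −0.90 to 0.58), −0.17 (−1.34 to 0.99) and −0.28 (−1.09 to 0.54) in this order, so that differences of over 1.5-fold in either direction lie within the interval of *Sfrp2*.

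The genes of fibroblast matrix had the same extreme library. In the wildtype-tagged libraries *Col1a1* was at 454, 524, 379 and 308 normalized CPM, and in the VEGFR1_TK-tagged libraries at 504, 248, 144 and 379. For *Postn* these values were 222, 329, 128 and 159.6 (wildtype tag) and 204, 104, 38.98 and 251 (VEGFR1_TK tag) in normalized CPM. *Col1a1* encodes a chain of type I collagen and *Postn* a matrix protein of activated fibroblasts. VEGFR1_TK-tagged replicate 3 was the lowest and replicate 2 of that tag the second lowest for *Col1a1*, *Col1a2*, *Postn*, *Sfrp2* and *Dkk3*. The summed level of the 6 fibroblast genes was 1130 to 1797 normalized CPM in the wildtype-tagged and 566 to 1448 in the VEGFR1_TK-tagged libraries, 0 of 6 having an unadjusted p under 0.05. The part of the fibroblast content in the 3 antagonists was not tested.

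**Figure D4:**
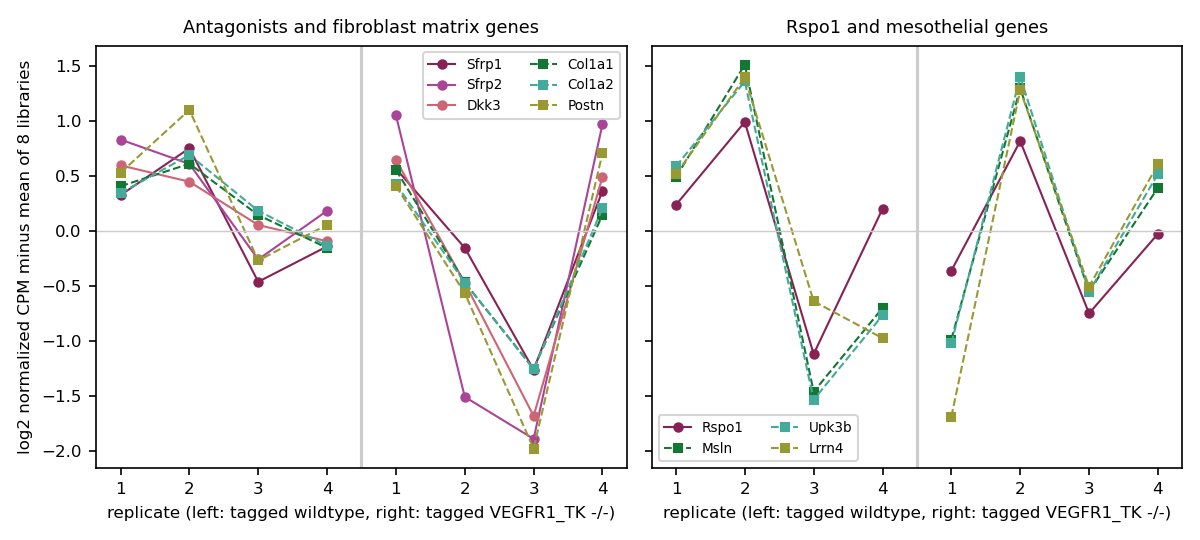
Log2 normalized CPM of each library (horizontal axis, replicates 1 to 4 of each genotype tag) minus the mean of the 8 libraries, for members (solid lines) and marker genes (dashed lines). On the left, *Sfrp1*, *Sfrp2*, *Dkk3*, *Col1a1*, *Col1a2* and *Postn* are lowest in VEGFR1_TK-tagged replicate 3; on the right, *Rspo1* and the mesothelial genes are high in replicate 2 of each tag.

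*Wif1* (ENSMUSG00000020218, chromosome 10, 121033960 to 121100650, plus strand of GRCm38), an antagonist that binds Wnt ligands, had the largest log2 fold change of the members and few reads, 6 to 14 counts per wildtype-tagged and 12 to 27 per VEGFR1_TK-tagged library. Wildtype-tagged replicates 1 to 4 held 0.673, 0.435, 0.537 and 1.12 normalized CPM of *Wif1*, and VEGFR1_TK-tagged replicates 1 to 4 held 2.19, 1.33, 0.947 and 1.03. The means were 0.691 ± 0.301 and 1.38 ± 0.568 (SD, n = 4 each), which is a log2 fold change of 1.00 (SE 0.39, 95% interval 0.14 to 1.86). Wildtype-tagged replicate 4 was above VEGFR1_TK-tagged replicates 3 and 4, so that the groups overlapped (2-sided exact permutation test, p = 0.0857). The unadjusted p was 0.0265 and the FDR 0.508 by edgeR's quasi-likelihood test. VEGFR1_TK-tagged replicate 1 was the highest, and without it the log2 fold change was 0.68 (unadjusted p = 0.111, edgeR's quasi-likelihood test). *Wif1* reached the CPM of 1 that the filter asks for in 4 libraries, 3 of them VEGFR1_TK-tagged. Of the wildtype-tagged libraries only replicate 4 reached it. *Wif1* therefore passed the filter only through the group where it was higher, and its fold change and p are not independent of the filter.

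*Sfrp5* spread from 0.145 to 1.27 normalized CPM in the wildtype-tagged and from 0.717 to 1.15 in the VEGFR1_TK-tagged libraries, on 2 to 17 counts. *Sfrp4* had 0 to 8 counts, *Dkk2* 0 to 7, *Dkk1* 0 to 1 and *Dkk4* none, so that the Dkk proteins that bind Lrp5/6 were at or near the limit of detection.

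All 7 cytoplasmic members passed the filter. *Ctnnb1*, the gene of β-catenin, which also anchors cadherins at cell contacts, was the most abundant member of all at 88.8 ± 8.42 FPKM (SD, n = 8). It was followed by *Dvl1* (18.7 ± 2.59), *Axin1* (8.09 ± 0.766), *Dvl3* (6.25 ± 0.334), *Apc* (2.21 ± 0.241), *Dvl2* (1.29 ± 0.191) and *Axin2* (0.595 ± 0.1497), and no neighbours in this order had overlapping ranges. Per library, *Ctnnb1* measured 450, 465, 534 and 494 normalized CPM with the wildtype tag and 424, 389.7, 455 and 478 with the VEGFR1_TK tag. VEGFR1_TK-tagged replicates 1 and 2 were below every wildtype-tagged library and the other two were not, and the groups overlapped. The log2 fold change of *Ctnnb1* was −0.15 (SE 0.11, 95% interval −0.39 to 0.08), an interval that leaves out a change of 1.5-fold in either direction.

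Normalized CPM values of *Dvl1* were 93.9, 77.2, 117 and 95.4 in the 4 wildtype-tagged libraries and 97.2, 75.7, 97.1 and 92.8 in the 4 VEGFR1_TK-tagged libraries. *Axin1* was at 32.1, 29.1, 33.7 and 34.98 normalized CPM in the wildtype-tagged and at 26.4, 31.2, 32.4 and 28.02 in the VEGFR1_TK-tagged libraries. Dvl1 passes the signal from the receptors and Axin1 is the scaffold of the degradation complex. Both overlapped between the groups, with log2 fold changes of −0.08 (−0.37 to 0.20) and −0.14 (−0.36 to 0.08). *Axin2*, the negative regulator that β-catenin and TCF/LEF induce and whose upstream sequence is given above, had 33 to 56 counts per library. *Axin2* reached 2.54, 4.06, 2.35 and 3.43 normalized CPM in wildtype-tagged replicates 1 to 4 and 3.17, 4.79, 3.23 and 2.63 in VEGFR1_TK-tagged replicates 1 to 4. It was highest in replicate 2 of each tag, the groups overlapped, and the log2 fold change was 0.15 (95% interval −0.39 to 0.70). The log2 fold changes of the 7 members ranged from −0.15 to 0.19. *Dvl2*, the upper end of this range, shares 1151 bases of exon with *Acadvl* on the opposite strand, which was at 807 to 1405 normalized CPM, so that its level is uncertain where strand did not enter the counting.

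Of the TCF/LEF factors, *Tcf7l1*, mostly a repressor of target genes, led at 5.42 ± 0.945 FPKM (SD, n = 8), followed by *Tcf7l2* at 1.17 ± 0.142 and *Tcf7* at 0.653 ± 0.155, without overlap of neighbouring ranges. In the wildtype-tagged libraries *Tcf7l1* was at 15.6, 24.7, 21.8 and 24.3 normalized CPM, and in the VEGFR1_TK-tagged libraries at 23.5, 24.6, 18.5 and 17.04. The wildtype-tagged libraries had 9.196, 8.77, 9.14 and 12.4 normalized CPM of *Tcf7l2* and the VEGFR1_TK-tagged libraries 9.82, 11.3, 10.6 and 10.8. For *Tcf7* these values were 1.495, 2.03, 1.21 and 1.997 (wildtype tag) and 2.35, 1.86, 1.499 and 1.27 (VEGFR1_TK tag) in normalized CPM. In each of the 3 the groups overlapped, and the log2 fold changes ranged from −0.05 to 0.11. *Lef1* had 1 to 8 counts per library and stayed below the filter. Tcf7 and Lef1 are known from T lymphocytes, and 6 T lymphocyte genes summed to 2.42 to 5.61 normalized CPM in the wildtype-tagged and 2.95 to 9.82 in the VEGFR1_TK-tagged libraries. The highest sum was in VEGFR1_TK-tagged replicate 1, also the highest library for *Tcf7* (2.35). The order of other libraries differed. Wildtype-tagged replicate 1 had the next highest sum, 5.61, with *Tcf7* at 1.495, and wildtype-tagged replicate 4 had a sum of 2.715 with *Tcf7* at 1.997. The part of these cells was not tested.

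Other genes of the pathway were taken from 7 lists with 99 rows of the table, of which 84 passed the filter. None was called by the quasi-likelihood test, and 9 had an unadjusted p under 0.05 (10.7%, against 8.96% of all genes), 0 of them higher and 9 lower in the VEGFR1_TK-tagged libraries, where 5.64% of all genes were lower at this threshold. The groups did not overlap in 4 of the 84 (4.76%, against 4.98% of all genes), and the median log2 fold change was −0.07. These 4 were *Gpc6*, *Tle1*, *Tle3* and *Kremen1*, a receptor for Dkk proteins with a log2 fold change of −0.14 (SE 0.08), named here after its values were seen. Among 18 genes of the degradation complex and its kinases and 14 of the planar polarity branch, 0 had an unadjusted p under 0.05.

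Of 19 nuclear cofactors, *Tle1*, *Tle3* and *Ctnnbip1* were lower at this threshold (15.8%, against 5.64% of all genes). The list as a whole had no direction, with 10 positive and 9 negative log2 fold changes and a median of 0.0034. Tle proteins are co-repressors that TCF/LEF factors recruit in the absence of β-catenin, and Ctnnbip1 blocks the binding of β-catenin to these factors. The same list holds the co-repressor genes *Tle2* and *Tle4*, which did not reach this threshold. Wildtype-tagged replicates 1 to 4 held 16, 16.96, 18 and 17.6 normalized CPM of *Tle1*, and VEGFR1_TK-tagged replicates 1 to 4 held 13.2, 12.9, 14.4 and 14.1. *Tle3* was at 27.7, 27.98, 32.9 and 29.1 normalized CPM in the wildtype-tagged and at 26.3, 19.1, 22.02 and 24.4 in the VEGFR1_TK-tagged libraries. The wildtype-tagged libraries had 49.9, 61.5, 62.9 and 63.6 normalized CPM of *Ctnnbip1* and the VEGFR1_TK-tagged libraries 50.6, 45.7, 49.3 and 49.3. The groups were separate in *Tle1* and *Tle3* (10.5% of the list, against 2.53% of all genes that were lower without overlap) and overlapped in *Ctnnbip1*. The log2 fold changes were −0.33 (SE 0.10), −0.36 (SE 0.11) and −0.29 (SE 0.10), and the lowest FDR of the 3 was 0.464 by edgeR's quasi-likelihood test.

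Of 20 rows for target genes, 16 passed the filter and *Apcdd1*, *Cd44* and *Ccnd1* were lower at an unadjusted p under 0.05 (3 of 16, against 5.64% of all genes), while 5 of the 16 had a positive log2 fold change. *Ccnd1* encodes cyclin D1, *Cd44* a receptor of hyaluronan and *Apcdd1* a membrane inhibitor of Wnt signals, also counted among the inhibitors. Their log2 fold changes were −0.27 (SE 0.11), −0.56 (SE 0.17) and −0.81 (SE 0.27), and the groups overlapped in each. The inhibitor list also held *Igfbp4* at −0.32 (SE 0.11). The glypican *Gpc6* was at 23.1 ± 2.02 and 15.4 ± 5.09 normalized CPM (SD over 4 libraries each) without overlap, a log2 fold change of −0.58 (SE 0.20). *Adgra2*, a cofactor of Wnt7 signals in endothelium, was at −0.41 (SE 0.18), while its ligands *Wnt7a* and *Wnt7b* had at most 2 counts in any library. The FDR of these 6 genes was 0.464 or more by edgeR's quasi-likelihood test. Of the endothelial and mural markers, 3 of 6 and 4 of 6 were lower at this threshold, as given above, and the part of these cells in the 9 genes was not tested.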

How the data were processed

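RNA sequencing counts of 8 LVs were analysed, 4 per genotype tag. After trimming (Trim Galore 0.4.4) and alignment to GRCm38 (STAR 2.5.4b), the authors ran featureCounts on GENCODE M16 and deposited whole-number counts per gene without normalization. The use of strand and of multiply aligned reads in counting is not given in the sources used here. Overlapping genes and paralogs may therefore share counts. The labels name a ribosomal RNA depletion kit and the paper's methods poly-A selection.

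The 13542 genes that reached a CPM of 1 in 2 or more libraries entered edgeR 4.0.16 in R 4.3.3 (TMM factors, quasi-likelihood F test), with all 8 libraries and no covariates. P-values were adjusted after Benjamini and Hochberg across these genes (FDR). The SE is the log2 fold change divided by the root of F. Normalized CPM divides counts by totals multiplied with TMM factors. Levels per kilobase used the union of exons of GENCODE M21. Alternatives were edgeR's likelihood ratio test (used in the study), DESeq2 1.42.0, RLE factors, total counts, other filters, each library left out and the replicate number as a block. The test was also run on simulated data. Their changes were larger than those of most members and lay on genes of higher level than *Wif1* and *Znrf3*, so that the run does not cover such cases. Members, lists and the rule for named genes (members with an unadjusted p under 0.05, without overlap, or among the 3 highest of their role) were chosen with earlier results of these data known. The remaining per-library values were chosen after they were seen, namely those of *Wnt5a*, *Axin2* and the marker genes. All value columns of the table were used.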

Additional observations from a re-analysis of the deposited data

Results flagged for a closer look

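In 4 of 70 groups of 4 libraries, 1 library lay far from the other three by Dixon's test, and chance gives about 1 in 20 such groups. *Wnt5a* was high in wildtype-tagged replicate 3 (10.01 normalized CPM), *Fzd2* in wildtype-tagged replicate 2 (9.06), *Ror2* in wildtype-tagged replicate 4 (3.035, from 38 counts) and *Tcf7l2* in wildtype-tagged replicate 4 (12.4). All 4 are wildtype-tagged and none of the 4 genes had an unadjusted p under 0.05.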

How the results depend on the processing

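No member was called under any of the 15 alternatives or at an FDR under 0.1 without a limit on the fold change. Over all genes, the likelihood ratio test called 53, DESeq2 called 32 and leaving out the filter gave 23, against 1, and 1 to 3 with a library left out. The 4 members with an unadjusted p under 0.05 became 2 with total counts and 1 to 4 with a library left out. The 2 members without overlap became 3 with total counts and 2 to 4 with a library left out. The share of all genes without overlap was not counted in these fits. The median log2 fold change of −0.03 became −0.0803 without the filter and ranged from −0.0619 to 0.0227 with a library left out, being positive without wildtype-tagged replicate 2 or 4 or VEGFR1_TK-tagged replicate 3. The 26 members at 1 FPKM or more remained 26 in number. The directions of *Wif1*, *Ror1*, *Lrp5* and *Znrf3* held in each of 15 alternatives, with unadjusted p from 0.00914 to 0.111, 0.0162 to 0.0836, 0.0137 to 0.11 and 0.0418 to 0.109. Of 360 log2 fold changes of 24 members, 34 turned direction, none of them of the 4 members just named: *Wnt9a* was at −0.00999 with total counts, −0.000245 with the replicate block and −0.0573 to 0.0776 with a library left out, and the ranges with a library left out were −0.15 to 0.28 for *Wnt5b*, −0.60 to 0.15 for *Rspo1*, −0.13 to 0.11 for *Fzd6*, −0.0868 to 0.13 for *Fzd7*, −0.10 to 0.05005 for *Lrp6*, −0.11 to 0.0154 for *Lgr4*, −0.40 to 0.0967 for *Sfrp1*, −0.61 to 0.16 for *Sfrp2*, −0.58 to 0.0227 for *Dkk3*, −0.17 to 0.0286 for *Dvl1*, −0.18 to 0.0397 for *Tcf7l1* and −0.12 to 0.18 for *Tcf7*. Correlations of deviations were −0.029, 0.029, 0.343 and −0.0555 for same-numbered libraries. In either tag, only replicate 3 was highest with its own number. With 4 libraries per tag these values cannot exclude that the replicate numbers pair the libraries, and 0.343 is the highest value of all pairs. With the replicate block, 0 members and 1 gene were called, 3 members had an unadjusted p under 0.05, and that of *Lgr6* was 0.0113 against 0.123. With 6 to 54 counts, *Wif1* and *Znrf3* are limited by depth. The causes of these changes were not tested.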
